A study of Mus musculus with 12 samples.

Results

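The HoxB cluster was followed in 12 bulk RNA-seq libraries of mouse gastruloids, aggregates of embryonic stem cells that break symmetry and elongate in culture. Its members were taken by symbol and Ensembl identifier, *Hoxb1* to *Hoxb9*, 9 of the 55141 genes in the count table. All groups started from 129/SVEV embryonic stem cells seeded at 300 cells per well, aggregated for 48 h and exposed to 3 µM CHIR 99021, an activator of the Wnt pathway, for 24 h. The gastruloids were then embedded at 72 h or at 96 h in a hydrogel of dextran and polyethylene glycol at 1.0 mM or 1.5 mM, the higher concentration being the stiffer gel, and all were collected at 120 h. Embedding at 72 h is called early and at 96 h late below, and the gels are called softer and stiffer. Each of the 4 groups had 3 biological replicates of about 30 pooled gastruloids, and each p-value below measures the spread between these pools of a single cell line. No library without a gel was part of these comparisons. As collection was at 120 h throughout, the time at which the gel was added and the time spent in it cannot be told apart. Libraries held 23011791 to 27609422 counts. Replicates differed by more than counting noise in all 12 pairs.

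Hox genes encode homeodomain transcription factors that give cells along the body axis their positional identity. Within a cluster they lie in the order in which they act: genes at the 3′ end, such as *Hoxb1*, are switched on early and extend furthest forward, into the hindbrain, while genes at the 5′ end, such as *Hoxb9*, are switched on later in the trunk and tail. This collinearity follows Wnt, FGF and retinoic acid signals and the Cdx factors in the posterior embryo, and gastruloids are known to run through the same sequence. In bulk RNA, fewer cells of a type and less RNA per cell cannot be told apart.

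The members occupy 1 block of chromosome 11 in the mm10 build. *Hoxb1* lies at 96365752 to 96368256, and the 5′ end of the block is *Hoxb9* at 96271457 to 96276595, with its start 94.3 kb from that of *Hoxb1*. All 9 are protein-coding genes of the forward strand. Exons of *Hoxb2*, *Hoxb3* and *Hoxb5* share 953, 2250 and 100 bases with exons of antisense transcripts in the GENCODE annotation of GRCm38. The libraries were stranded, but the strand setting of the counting is not given in the sources used here, so at these 3 genes reads of both strands may have been counted together.

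RefSeq promoter windows of 300 bases (GRCm38.p6) matched 3 of the 9 members, and all 3 windows are shown. Their genes differ in the response described below: *Hoxb1* did not pass the test of embedding time, *Hoxb4* was moderately lower and *Hoxb8* strongly lower after early embedding. Each runs 5′ to 3′ on the forward strand, from 250 bases before the start that RefSeq gives, which for *Hoxb1* lies a few bases from the start given above, and capitals mark matches on either strand to TTTATNG (a core bound by Cdx factors), TGATNNAT (a core bound by Pbx and Hox factors together) or AGGTCA (a core bound by nuclear receptors, among them those for retinoic acid).
Hoxb1, chr11:96365508-96365807: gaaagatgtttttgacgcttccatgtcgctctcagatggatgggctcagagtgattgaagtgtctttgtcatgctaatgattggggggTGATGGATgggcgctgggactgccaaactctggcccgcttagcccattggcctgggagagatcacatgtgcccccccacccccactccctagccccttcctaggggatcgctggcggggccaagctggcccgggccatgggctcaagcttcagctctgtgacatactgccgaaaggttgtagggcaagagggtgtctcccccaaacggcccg
Hoxb4, chr11:96318017-96318316: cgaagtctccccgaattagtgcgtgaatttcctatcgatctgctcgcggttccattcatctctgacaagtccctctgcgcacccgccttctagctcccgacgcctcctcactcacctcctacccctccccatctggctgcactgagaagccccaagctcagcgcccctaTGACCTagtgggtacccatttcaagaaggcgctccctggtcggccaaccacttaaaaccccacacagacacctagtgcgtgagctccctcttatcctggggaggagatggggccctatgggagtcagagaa
Hoxb8, chr11:96281655-96281954: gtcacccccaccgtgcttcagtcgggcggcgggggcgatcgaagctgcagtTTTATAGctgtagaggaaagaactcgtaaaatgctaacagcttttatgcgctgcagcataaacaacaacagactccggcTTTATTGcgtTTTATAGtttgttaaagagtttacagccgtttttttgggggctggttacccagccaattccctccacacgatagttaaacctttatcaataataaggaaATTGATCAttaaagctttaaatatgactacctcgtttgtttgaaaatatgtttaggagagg
With the RefSeq start counted as 0, the *Hoxb1* window held 1 match to the Pbx and Hox core at -162 to -155, and the *Hoxb4* window 1 match to the nuclear receptor core on the reverse strand at -81 to -76. The *Hoxb8* window held 3 matches to the Cdx core, the first at -199 to -193, and 1 to the Pbx and Hox core at -11 to -4. Of 32851 mouse promoter windows of this length, 10.9% held at least 1 match to the Cdx core. At least 1 match was held by 8.85% for the Pbx and Hox core and by 16.3% for the nuclear receptor core. The share of windows with 3 Cdx matches was not counted. The 3 cores do not overlap in these windows. These are descriptions of letters in a window, and binding was not measured. GC content was 59.3% at *Hoxb1*, 58% at *Hoxb4* and 42.3% at *Hoxb8*, against a median of 52.7% over all windows.

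Levels along the cluster were set by FPKM, which counts fragments per length and depth. *Hoxb2* was the most abundant member, followed by *Hoxb3*, *Hoxb1* and *Hoxb4* in that order in each of the 12 libraries. Mean FPKM of *Hoxb2* was 28.4 ± 1.81 (SD, n = 3) after early embedding and 32.7 ± 2.38 after late embedding in the softer gel, and 25.4 ± 1.70 and 37.7 ± 3.95 in the stiffer gel. The neighbours in this order did not overlap in any group down to *Hoxb4*, whose mean FPKM lay between 1.12 and 3.09.

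Below *Hoxb4* the order depended on the embedding time. After embedding at 96 h, *Hoxb8* was the fifth most abundant member, with a mean FPKM of 1.45 ± 0.462 (SD, n = 3) in the softer and 1.02 ± 0.622 in the stiffer gel. After embedding at 72 h the fifth place by mean FPKM was held by *Hoxb5*, at 0.514 ± 0.325 and 0.223 ± 0.123, with a range that overlapped that of *Hoxb6*. *Hoxb9* came last by mean in both early-embedded groups, where its range overlapped that of *Hoxb7*, and sixth and seventh in the late-embedded groups in the softer and the stiffer gel.

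**Figure D1:**
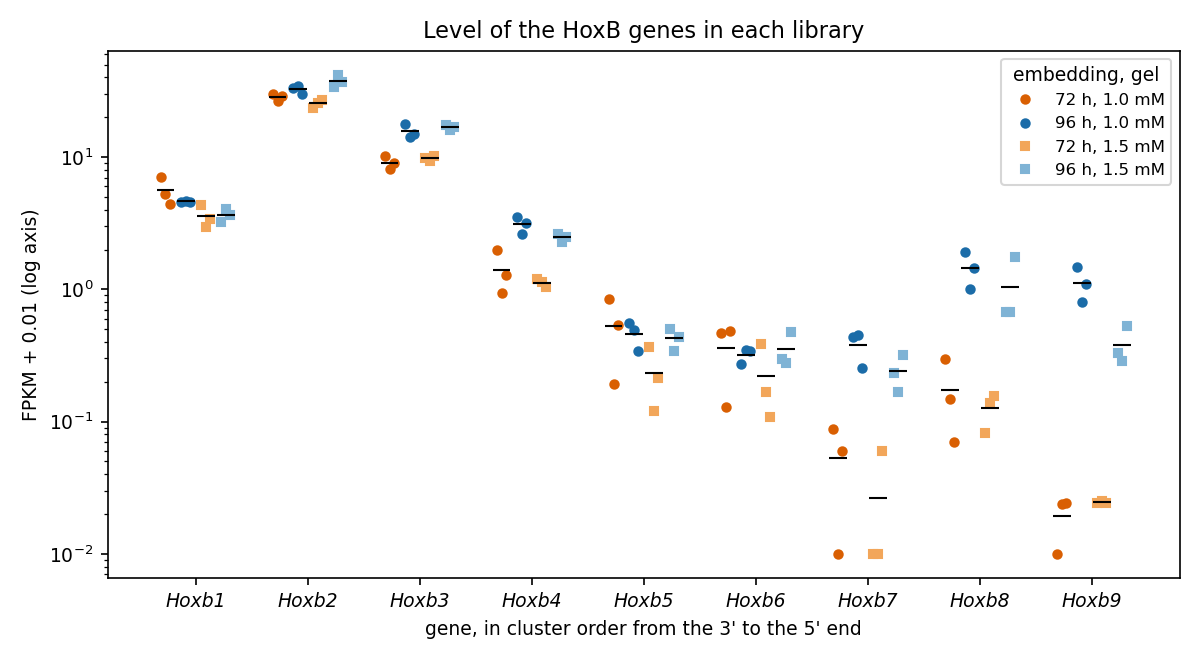
FPKM plus 0.01 of each HoxB gene, on a log axis, in cluster order from the 3′ to the 5′ end, with a point for each of the 12 libraries and a line at each group mean. *Hoxb2* stands highest, at 25.4 to 37.7 on average, and *Hoxb7* to *Hoxb9* drop away in the early-embedded groups.

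Summed over the 9 genes, FPKM was 45.5 ± 4.94 (SD, n = 3) and 59.7 ± 3.85 after early and late embedding in the softer gel. In the stiffer gel the sums were 40.5 ± 1.56 and 62.8 ± 3.37. The sums of the early-embedded groups lay below those of the late-embedded groups in every library, from 39.3 to 50.9 against 56.1 to 65.9. *Hoxb1*, *Hoxb2* and *Hoxb3* together made up 94.7% ± 1.89 and 88.6% ± 1.60 of the sum in the softer gel, and 95.8% ± 0.742 and 92.3% ± 1.65 in the stiffer gel. The 5′ genes *Hoxb7*, *Hoxb8* and *Hoxb9* made up 0.459% ± 0.234 of it after early embedding and 4.89% ± 1.10 after late embedding in the softer gel, and 0.362% ± 0.141 and 2.58% ± 1.28 in the stiffer gel.

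Embedding at 72 h was first compared with embedding at 96 h within each gel, to ask how the cluster depends on when the mechanical confinement begins. *Hoxb3*, *Hoxb4*, *Hoxb8* and *Hoxb9* were lower after early embedding in both gels, and among these genes the change was larger toward the 5′ end. *Hoxb1* did not pass the test in either gel, nor did *Hoxb5* and *Hoxb6* in the middle of the cluster. In the softer gel all 9 members were tested and 5 passed an adjusted p of 0.05 (edgeR quasi-likelihood test), all lower, where 9.24% of 15763 genes passed and 3.27% were lower. In the stiffer gel 8 were tested and 5 passed, all lower, where 19.3% of 15683 genes passed and 8.98% were lower. *Hoxb7*, *Hoxb8* and *Hoxb9* reached the minimum count only through the late-embedded groups. Their counts are therefore given one by one below, and their number is not evidence of direction. The larger change beyond *Hoxb4* rests on these genes and is a description only. The median log2 fold change was -0.78 over the 9 tested members and -0.86 over the 8, against -0.01 over all genes tested in each gel. These medians include *Hoxb8* and *Hoxb9* in both gels and *Hoxb7* in the softer gel, and so carry the same limit.

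**Figure D2:**
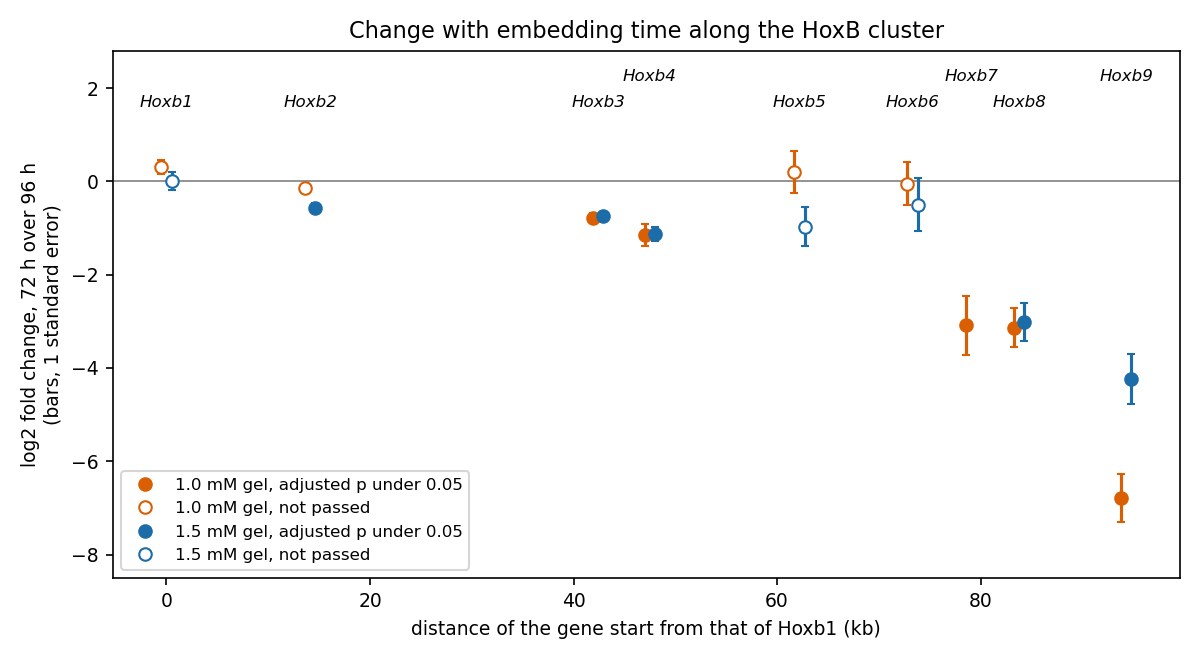
Log2 fold change of embedding at 72 h over 96 h (bars, 1 standard error) against the distance of each gene start from that of *Hoxb1* in kb, for the softer and the stiffer gel; filled points passed an adjusted p of 0.05, and the gels are set slightly apart. The points step down from *Hoxb1* at 0.31 and 0.01 to *Hoxb9* at -6.79 and -4.25, with *Hoxb5* and *Hoxb6* (0.21 and -0.05 in the softer gel) out of step, and *Hoxb7* is absent for the stiffer gel, where it was not tested. *Hoxb7*, *Hoxb8* and *Hoxb9* reached the minimum count only through the late-embedded groups.

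*Hoxb1*, which sets the identity of a single hindbrain segment and is the first gene of the cluster to be activated, was not lower by the test in either gel. Its CPM (counts scaled to the TMM-adjusted library total) was 19.7, 15.3 and 12.7 in the 3 early-embedded libraries in the softer gel and 12.5, 12.8 and 13.1 in those embedded late. The stiffer gel gave 13.2, 8.30 and 9.46 against 8.66, 12.0 and 10.1. The ranges overlapped in both gels, with log2 fold changes of 0.31 (SE 0.156, adjusted p = 0.272) and 0.01 (SE 0.189, adjusted p = 0.984).

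*Hoxb2* (96351631 to 96354012), which also patterns the hindbrain, passed the test in the stiffer gel but not in the softer gel. There its CPM was 55.9, 55.3 and 57.5 after early embedding and 73.1, 97.4 and 78.3 after late embedding, a log2 change of -0.56 (SE 0.0997, adjusted p = 0.0072). In the softer gel the ranges overlapped, at 58.8 to 64.4 against 63.0 to 73.8, with a log2 change of -0.15 (adjusted p = 0.32). The difference between the gels in this effect did not pass the test (interaction -0.40, adjusted p = 0.953), so the gels are not shown to differ.

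*Hoxb3* (96323326 to 96347930), a gene of the posterior hindbrain, was lower after early embedding in both gels. Its CPM was 44.5, 35.5 and 40.7 against 78.3, 62.7 and 66.3 in the softer gel, a log2 change of -0.78 (SE 0.112, adjusted p = 0.00167). The stiffer-gel libraries gave 47.3, 41.8 and 44.8 against 76.1, 75.8 and 73.5, a log2 change of -0.75 (SE 0.0684, adjusted p = 0.000763). Groups did not overlap in either gel.

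*Hoxb4* (96318267 to 96321638), expressed at the junction of hindbrain and spinal cord and in the mesoderm beside it, was reduced further. CPM was 6.49, 3.15 and 4.22 against 11.6, 8.65 and 10.4 in the softer gel, and 4.37, 3.77 and 3.43 against 8.73, 8.25 and 8.21 in the stiffer gel. Every early-embedded library was below every late-embedded library. The log2 changes were -1.15 (SE 0.238, adjusted p = 0.0118) and -1.13 (SE 0.148, adjusted p = 0.00281).

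*Hoxb5* (96303512 to 96306120) and *Hoxb6* (96292476 to 96301569), which act in the neck and upper trunk, did not pass the test in either gel. *Hoxb5* had 49, 11 and 31 counts after early embedding and 34, 30 and 22 after late embedding in the softer gel, and 21, 6 and 11 against 33, 23 and 27 in the stiffer gel. *Hoxb6* had 19, 5 and 21 against 15, 15 and 21, and 21, 6 and 4 against 16, 13 and 20. In both genes and both gels the CPM ranges overlapped, and the early-embedded libraries spread more widely than those embedded late. The log2 fold changes of *Hoxb5* were 0.21 (SE 0.45, adjusted p = 0.832) and -0.97 (SE 0.416, adjusted p = 0.129), and those of *Hoxb6* -0.05 (SE 0.461, adjusted p = 0.965) and -0.50 (SE 0.56, adjusted p = 0.566). These results in the stiffer gel rested on 1 library: without replicate 1 of the early-embedded group, *Hoxb5* (-1.57, adjusted p = 0.018) and *Hoxb6* (-1.56, adjusted p = 0.0418) both passed and 7 members were lower.

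The 5′ genes *Hoxb7* (96286623 to 96290162), *Hoxb8* (96281905 to 96285315) and *Hoxb9* pattern the thoracic part of the body, and their RNA was close to the limit of detection after early embedding. *Hoxb7* had 3, 0 and 2 counts after early embedding and 18, 19 and 12 after late embedding in the softer gel, and 0, 0 and 2 against 10, 7 and 13 in the stiffer gel. Scaled to depth, this was 8.98 times more at 96 h (95% interval of the count ratio 3.60 to 28.9) in the softer and 13.5 times more (3.44 to 117) in the stiffer gel. These intervals, from the exact binomial for summed counts, cover counting error only.

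*Hoxb8* had 20, 8 and 4 counts after early embedding and 123, 74 and 115 after late embedding in the softer gel, and 7, 8 and 10 against 48, 63 and 114 in the stiffer gel. No early-embedded library reached the lowest late-embedded library. The log2 changes were -3.14 (SE 0.418, adjusted p = 0.00118) and -3.01 (SE 0.407, adjusted p = 0.00311). As *Hoxb8* reached the minimum count only through the late-embedded groups, these p-values are a description and not evidence of direction.

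*Hoxb9*, the last member, was near absent after early embedding. Only 0, 1 and 1 counts were found in the early-embedded libraries in the softer gel, against 121, 68 and 95 in those embedded late, and 1, 1 and 2 against 25, 22 and 44 in the stiffer gel. The depth-scaled count ratio was 130 (95% interval 35.7 to 1079) in the softer and 20.5 (7.75 to 77.0) in the stiffer gel, both with adjusted p below the threshold (6.73e-05 and 0.0027). The fitted log2 fold changes, -6.79 and -4.25, depend on the prior count at such low levels. *Hoxb7* passed in the softer gel (adjusted p = 0.0111) and was below the minimum count in the stiffer gel. The p-values of *Hoxb7* and *Hoxb9* are likewise a description, as both genes reached the minimum count only through the late-embedded groups.

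Taking both gels in a single fit, 6 of the 9 members were lower after early embedding and none was higher, where 31.1% of 16388 genes passed and 14.8% were lower. *Hoxb7*, *Hoxb8* and *Hoxb9* are among the 6 and reached the minimum count only through the late-embedded groups, so this number is not evidence of direction. *Hoxb2* joined the 5 others with a log2 change of -0.36 (SE 0.0828, adjusted p = 0.00467). *Hoxb1* (0.16, adjusted p = 0.373), *Hoxb5* (-0.32, adjusted p = 0.525) and *Hoxb6* (-0.26, adjusted p = 0.635) did not pass. In CPM the groups did not overlap for *Hoxb3*, *Hoxb4*, *Hoxb7*, *Hoxb8* and *Hoxb9* in both gels and for *Hoxb2* in the stiffer gel, all lower at 72 h, where 12.8% of the genes tested in the softer gel and 19.7% in the stiffer gel were lower without overlap. The same limit holds here for *Hoxb7*, *Hoxb8* and *Hoxb9*.

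**Figure D3:**
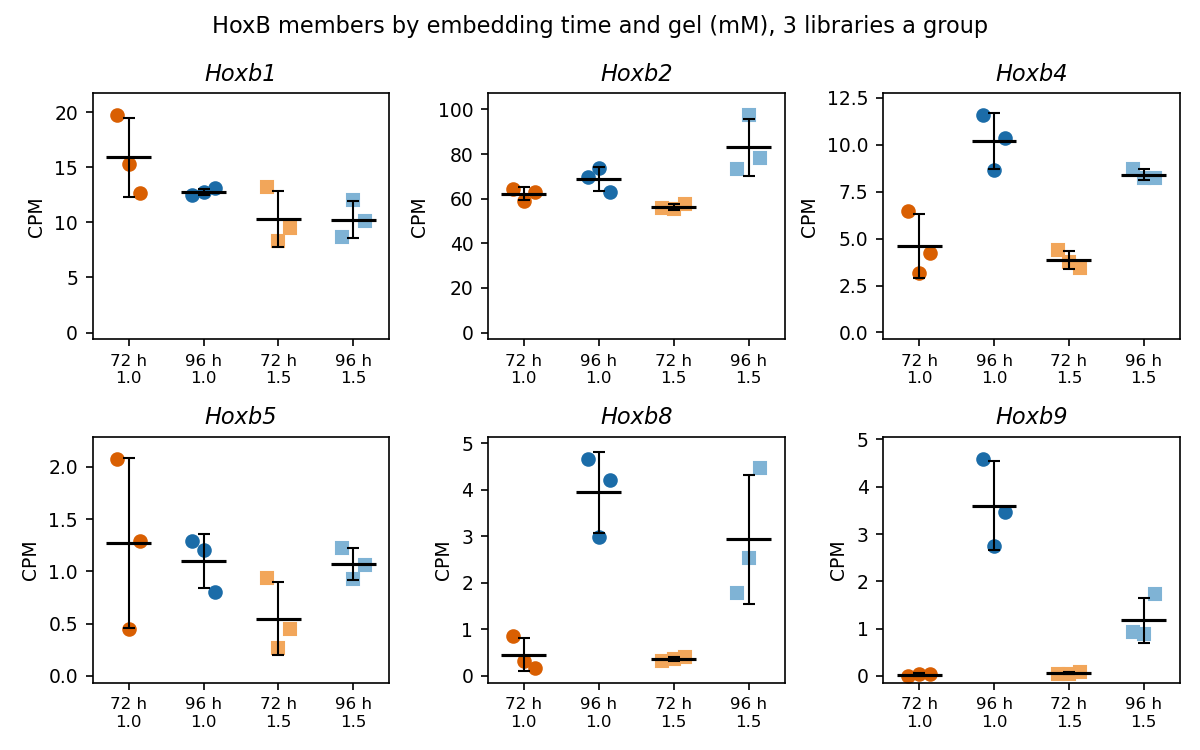
CPM of 6 HoxB genes in each library (points, 3 a group) with the group mean and SD (bars), by embedding time and gel concentration. *Hoxb4*, *Hoxb8* and *Hoxb9* separate by embedding time in both gels, whereas *Hoxb1* and *Hoxb5* overlap, and *Hoxb9* after late embedding reaches 4.59 in the softer but 1.73 in the stiffer gel.

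To compare neighbours directly, the log2 ratio of each gene to the next one toward the 3′ end was taken within each library, so that depth and scaling cancel, and embedding times were permuted within gels (two-sided exact permutation test, 400 assignments, smallest possible p = 0.005). Of the 8 neighbouring pairs, 5 lie among *Hoxb1* to *Hoxb6*, and 3 of these shifted against the 5′ gene after early embedding. The ratio of *Hoxb2* to *Hoxb1* was lower by a mean log2 difference of -0.49 over both gels (exact p = 0.01, adjusted p = 0.02). That of *Hoxb3* to *Hoxb2* differed by -0.42 (exact p = 0.015, adjusted p = 0.024) and that of *Hoxb4* to *Hoxb3* by -0.38 (exact p = 0.01, adjusted p = 0.02). *Hoxb2*, *Hoxb3* and *Hoxb4* were thus each lower relative to the gene before them in the mean over both gels. The early and late ranges overlapped in the softer gel for *Hoxb2* to *Hoxb1* and for *Hoxb4* to *Hoxb3*. In the stiffer gel they overlapped for *Hoxb3* to *Hoxb2*.

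Further along, the ratio of *Hoxb5* to *Hoxb4* moved the other way by 0.65 but missed the threshold (exact p = 0.08, adjusted p = 0.107), as did *Hoxb6* to *Hoxb5* at 0.05 (exact p = 0.835). The 3 pairs with *Hoxb7*, *Hoxb8* or *Hoxb9* hold genes that reached the minimum count only in the late-embedded groups. Their p-values entered the adjustment, which runs over all 8 neighbouring pairs, but their ratios are given here as a description only. They differed by -1.79 for *Hoxb7* to *Hoxb6*, by -0.66 for *Hoxb8* to *Hoxb7* and by -1.21 for *Hoxb9* to *Hoxb8*. A prior count of 2 shrinks these ratios, as counts there are near 0. The call for *Hoxb4* to *Hoxb3* was lost when any late-embedded library in the softer gel was left out (highest adjusted p = 0.064, exact permutation), and *Hoxb5* to *Hoxb4* passed without replicate 2 of the early-embedded group in the stiffer gel (0.82, adjusted p = 0.016, exact permutation).

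The other Hox clusters carry paralogues, copies of the same ancestral gene, and several of these were lower after early embedding too. In the softer gel all 5 *Hoxd* genes tested of 9, and *Hoxc4*, the single *Hoxc* gene tested of 9, were lower. In the stiffer gel 3 of 4 *Hoxd* genes were lower, and no *Hoxc* gene was tested. *Hoxa2*, *Hoxa3*, *Hoxa4* and *Hoxa5* were lower in both gels, by -1.39 to -3.21 on the log2 scale in the softer and by -1.15 to -2.68 in the stiffer gel, and *Hoxa7* was lower in the softer gel (-4.76) and not tested in the stiffer gel. Of these, *Hoxa5*, *Hoxa7*, *Hoxc4*, *Hoxd8* and *Hoxd9* reached the minimum count only in late-embedded groups.

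The difference between paralogues was examined by the same ratio within libraries, for the 12 pairs in which both genes passed the filter over all 12 libraries (pairs set after the values were seen). In 7 of them both genes also reached the minimum count in the early-embedded libraries alone. In all 7 the HoxB gene was higher relative to its paralogue after early embedding, with p-values adjusted over the 12 pairs. Among them, *Hoxb1* rose against *Hoxd1* by 1.42 on the log2 scale, *Hoxb2* against *Hoxa2* by 0.93, and *Hoxb3* against *Hoxa3* by 0.70 and against *Hoxd3* by 2.94 (each exact p = 0.005, the smallest possible, adjusted p = 0.0075). *Hoxb4* rose against *Hoxa4* by 1.15 and *Hoxd4* by 1.26 (each exact p = 0.005, adjusted p = 0.0075). These 7 calls held with each of the 12 libraries left out in turn.

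The other 5 pairs each hold a gene that reached the minimum count only after late embedding. They are described without p-values, although these entered the adjustment over the 12 pairs. The HoxB gene was higher relative to *Hoxc4* (*Hoxb4*, 1.33) and *Hoxa5* (*Hoxb5*, 2.31), while *Hoxb7* to *Hoxa7* gave 0.08, *Hoxb8* to *Hoxd8* -0.42 and *Hoxb9* to *Hoxd9* -2.96. *Hoxd9* itself had 6, 5 and 10 counts after early embedding and 32, 31 and 17 after late embedding in the softer gel.

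**Figure D4:**
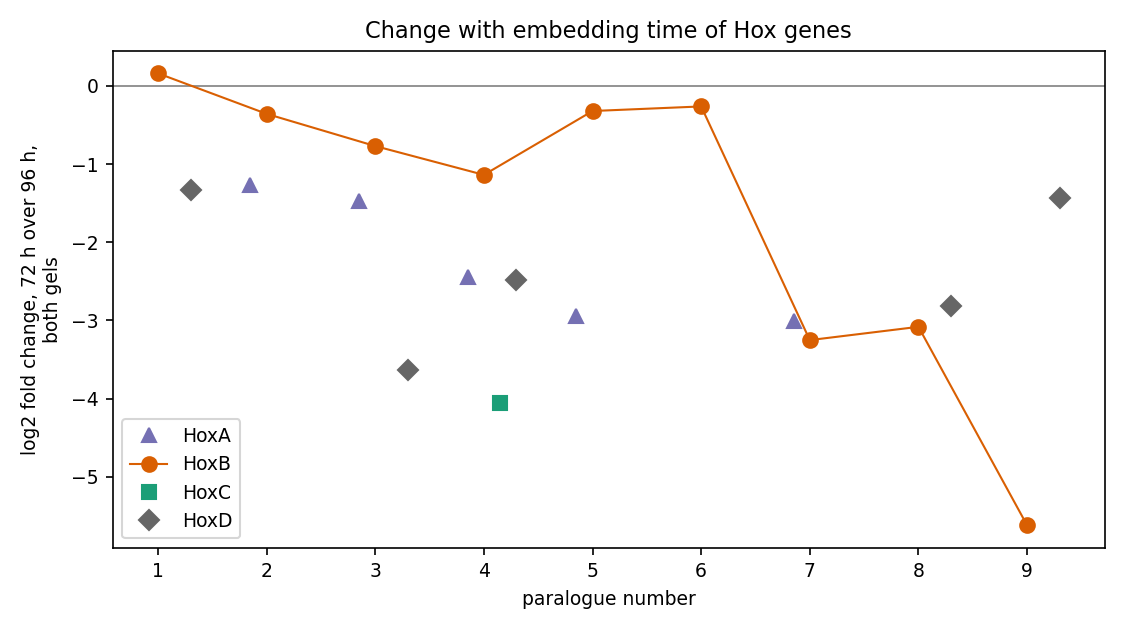
Log2 fold change of embedding at 72 h over 96 h, both gels in a single fit, by paralogue number for Hox genes that were tested, with HoxB joined by a line. HoxB lies above the other clusters at paralogues 1 to 5, from 0.16 at *Hoxb1* to -1.14 at *Hoxb4*, and reaches the lowest value at *Hoxb9*, -5.62.

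The gel concentration was compared next, at each embedding time, to ask whether the cluster depends on stiffness. No member passed the edgeR test at 72 h (6 tested) or at 96 h (9 tested), where 0% of all genes passed at either time, while 6.9% and 9.95% of genes had an unadjusted p below 0.05. *Hoxb7*, *Hoxb8* and *Hoxb9* were below the minimum count at 72 h.

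*Hoxb9* at 96 h was the member with the smallest p between gels. Its CPM was 4.59, 2.74 and 3.47 in the softer and 0.929, 0.885 and 1.73 in the stiffer gel, without overlap, where 7.35% of all genes were lower without overlap. The log2 fold change was -1.62 (SE 0.294), which missed the threshold over all genes (edgeR adjusted p = 0.122) and passed without replicate 3 of the stiffer gel (-1.99, adjusted p = 0.0326). The count ratio was 3.07 in favour of the softer gel (95% counting interval 2.41 to 3.93). DESeq2 called it (adjusted p = 0.000929), in a comparison where that tool called 0.696% of genes, and edgeR with the replicate block called it too (adjusted p = 0.00141), where it called 1.82% of genes.

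*Hoxb1* was lower in the stiffer gel in both group means, by -0.62 (SE 0.206) at 72 h and -0.33 (SE 0.13) at 96 h, with edgeR adjusted p of 0.698 and 0.451. Its CPM ranges overlapped at 72 h and did not at 96 h, where 7.35% of all genes were lower without overlap. Over both embedding times the log2 fold change was -0.47 (SE 0.131, adjusted p = 0.169), and DESeq2 called it (adjusted p = 0.0388) in a fit where it called 1.36% of genes. In edgeR 0.0305% of genes passed in that fit, none of them a member. *Hoxb2* had a higher mean in the stiffer gel at 96 h (0.26, edgeR adjusted p = 0.438), with overlap, and a lower one at 72 h (-0.14, edgeR adjusted p = 0.727). Its CPM at 72 h was 55.3 to 57.5 against 58.8 to 64.4 without overlap, where 5.22% of genes were lower without overlap. The FPKM ranges of *Hoxb2* overlapped at 72 h. *Hoxb3* had a higher mean at both times (0.15 and 0.11, adjusted p = 0.751 and 0.706), and the remaining members tested were between -1.21 (*Hoxb5* at 72 h, SE 0.572) and -0.04.

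Whether the embedding time effect differed between gels was tested with an interaction term, and none of the 9 members passed, where 0% of all genes passed and 4.32% had an unadjusted p below 0.05. The interaction of *Hoxb9* was 2.55 (SE 1.15, adjusted p = 0.953), a smaller reduction in the stiffer gel, and rests on 2 and 4 counts summed over the early-embedded libraries.

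Transcripts between the coding genes were followed as well. *Hoxb5os*, an antisense transcript over *Hoxb5* and *Hoxb6*, was lower after early embedding in the softer gel, where *Hoxb5* and *Hoxb6* did not pass. It had 0 counts in the 3 early-embedded libraries and 21, 21 and 22 in those embedded late. With a floor of 3 counts over the group it was at least 19.5-fold lower (edgeR adjusted p = 0.00103). The 95% counting interval of the ratio allows a fold as low as 15.4. As *Hoxb5os* reached the minimum count only through the late-embedded group, this p-value is a description and not evidence of direction. The stiffer gel gave 0, 0 and 3 counts against 6, 12 and 14, below the minimum for the test, a ratio of 9.63 (95% counting interval 3.01 to 49.2). *Hoxb3os*, antisense to *Hoxb3* and *Hoxb2*, ran from 1390 to 2513 counts and did not pass (-0.10 and -0.14, adjusted p = 0.744 and 0.387), next to *Hoxb3*, which was lower in both gels. *Hoxb13*, the outlying 5′ gene, had at most 3 counts in any library.

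The 10 expressed genes that flank the cluster, 5 on each side, were tested for embedding time as well. None passed in the softer gel. With the stiffer gel *Atp5g1*, a subunit of ATP synthase, was lower (-0.39, adjusted p = 0.00677) and *Nfe2l1*, a stress-response factor, higher (0.36, adjusted p = 0.0194). Taking both gels in a single fit, 2 of the 10 were higher and 3 lower, with log2 fold changes between -0.24 (*Atp5g1*) and 0.29 (*Nfe2l1*).

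Factors that act with or on Hox genes changed in part. Of 9 TALE cofactors, which bind DNA with Hox proteins, *Meis2* was lower in both gels (-0.80 and -0.70, adjusted p = 0.00285 and 0.00104), as was *Meis3* (-0.41 and -0.37, adjusted p = 0.00794 and 0.0111). With the stiffer gel *Meis1* was lower (-0.56, adjusted p = 0.0316). Thus 2 of 9 were lower in the softer gel and 3 in the stiffer gel.

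Of 15 upstream regulators, 13 were tested in the softer gel, where 2 were higher and 4 lower. *T*, the mesoderm and tail bud factor, was higher (1.17, adjusted p = 0.000604), as was *Cyp26a1*, which degrades retinoic acid (0.85, adjusted p = 0.00206). *Aldh1a2*, which makes retinoic acid, and *Rara*, one of its receptors, were lower (-0.45 and -0.47, adjusted p = 0.00362 and 0.00376). In the stiffer gel 12 were tested, with 3 higher and 2 lower, and *T* (1.42), *Cyp26a1* (0.60) and *Rara* (-0.39) passed in the same direction. *Aldh1a2* did not pass there (0.05, adjusted p = 0.875), and *Rarg*, another retinoic acid receptor, was higher (0.26, adjusted p = 0.0339). Of 10 chromatin regulators, *Bmi1*, a Polycomb subunit, was lower in both gels (-0.37 and -0.27, adjusted p = 0.0323 and 0.0145), and *Ezh1*, another Polycomb subunit, was higher in the stiffer gel (0.28, adjusted p = 0.0256).

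Markers of several cell types moved with embedding time. Somite markers were lower (7 of 7 in the softer and 5 of 7 in the stiffer gel): their summed CPM was 195 to 304 after early embedding and 645 to 744 after late embedding in the softer gel, and 206 to 360 against 477 to 640 in the stiffer gel. Cardiac and anterior mesoderm markers were higher (7 of 8 and 5 of 8), with summed CPM of 435 to 760 against 57.4 to 163, and 345 to 639 against 166 to 308. Of the neural tube markers 2 were higher and 2 lower of 7 in the softer gel, and 1 each way of 6 tested in the stiffer gel, with summed CPM of 121 to 142 against 98.2 to 118 and 134 to 154 against 108 to 127. Pluripotent and germ-cell-like markers were 5 lower and 1 higher of 6 tested in each gel, with summed CPM of 94.0 to 121 against 126 to 172 and 90.6 to 94.7 against 120 to 140. Of the tail bud and neuromesodermal markers 2 were higher and 1 lower of 5 tested in the softer gel, and 2 higher in the stiffer gel. Their summed CPM was 286 to 360 against 131 to 188 and 246 to 286 against 119 to 130, higher after early embedding without overlap. A sum is carried by the most abundant genes of a list. The median log2 fold change over these markers was 0.36 in the softer and 0.16 in the stiffer gel. Over the neural tube markers it was -0.58 and -0.14, although their sums were higher. Of the presomitic mesoderm markers 1 was lower of 5 tested in the softer gel, and 2 were higher of 5 in the stiffer gel. Of 6 endoderm markers 1 was higher in the softer gel, and 1 went each way in the stiffer gel. Of 6 endothelium markers 2 were higher and 1 lower in the softer gel, and 1 went each way in the stiffer gel. No marker of these lists was at 0 throughout a group. The part of these shifts in the HoxB changes was not tested.

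Genes with profiles most like those of the cluster were sought over the 12 libraries by Euclidean distance between centred log2 CPM. Nearest to the mean of the 9 members were *Myc* (distance 0.764), *Acss1* (0.826) and *Gap43* (0.841). This mean includes *Hoxb7*, *Hoxb8* and *Hoxb9*, which changed most and were close to the limit of detection after early embedding. Nearest to *Hoxb9* were *Lefty1*, a Nodal antagonist (1.53), *Meox2*, a somite factor (2.2), and *Igsf5* (2.33). Like *Hoxb9*, *Igsf5* was near absent after early embedding, with a mean CPM of 0.0281 in the softer and 0.0135 in the stiffer gel. *Hoxb1* had other neighbours, *Pycr1* (0.482), *Gm3531* (0.545) and *Slc1a5* (0.611).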

How the data were processed

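Poly-A RNA of 12 gastruloid pools (4 groups of 3) was sequenced as stranded libraries. The authors trimmed reads with cutadapt 4.4, aligned them to mm10 with STAR 2.7.10b and deposited gene counts that had not been normalized. The authors also deposited FPKM values from Cufflinks 2.2.1.3. A table of the authors' own comparisons, which holds fold changes and p-values, was not used. The strand setting of the counts is not given in the sources used here. The 36 mitochondrial genes were left out, and 23011791 to 27609422 counts per library leave few counts for *Hoxb5* to *Hoxb9*, where depth limits the precision too.

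Counts were filtered by group (filterByExpr, minimum count 10, minimum total 15), scaled with TMM and tested with edgeR 4.0.16 (glmQLFit and glmQLFTest, R 4.3.3) over all genes, with Benjamini-Hochberg adjustment. Log2 fold changes are 72 h over 96 h and 1.5 mM over 1.0 mM. The 4 pairwise comparisons used 2 groups each, and the 3 others all 12 libraries. CPM was computed on TMM-scaled library totals. Ratios between genes used log2 CPM with a prior count of 2 and exact permutation within gels. FPKM comparisons used limma 3.58.1 on log2(FPKM + 1) for genes at 1 FPKM or more in 3 libraries. The edgeR, limma and DESeq2 1.42.0 fits were tested on simulated data.

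All 9 members are named, with at most 4 genes of each other list, those of smallest adjusted p, apart from *Hoxd9*, *Rarg*, the paralogue pairs and the single genes at the locus. The members and lists were chosen with earlier results of these data known. Results of some list genes are not reported here. Alternatives were DESeq2, limma-voom, other scalings and filters, replicate blocks, FPKM and each library left out.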

Additional observations from a re-analysis of the deposited data

How the results depend on the processing

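Directions of the called members held under every alternative run that tested them. With limma on log2(FPKM + 1) or log2(FPKM + 0.1), 3 members passed for embedding time in 1.0 mM gels, with 4 of the 9 below the FPKM filter, and 2 passed without that filter. In 1.5 mM gels 3 passed with limma on log2(FPKM + 1) without the filter, and 3 with an added absolute log2 fold change above 1. Between gels at 72 h, 1 member passed without a filter on low counts (*Hoxb1*, adjusted p = 0.0142). At 96 h 1 passed (*Hoxb9*) with DESeq2, without the filter, and with the replicate block (adjusted p = 0.00141). Over both times 2 passed with DESeq2 and 2 without the filter (*Hoxb1* and *Hoxb9*), and 1 with the replicate block (*Hoxb9*, adjusted p = 0.0463). The replicate block changed no other count of members. Replicate numbers were not taken as pairs in the main fit. Correlations of same-numbered libraries ran from 0.0437 to 0.302, above 0.1 in 8 of 12 pairs. Differently numbered libraries gave -0.241 to 0.111, above 0.1 in 1 of 24 pairs, and a library correlated best with its own number in 22 of 24 cases, a hint of pairing from the data and not from the design. With each library left out, the counts of members ranged from 5 to 5 (1.0 mM), 5 to 7 (1.5 mM), 6 to 6 (both gels) and 0 to 1 (gels at 96 h), and stayed at 0 for the other comparisons.

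Signs turned only for values that had not passed. *Hoxb1* in 1.5 mM gels gave -0.0084 with limma-voom, -0.019 with upper quartile scaling, -0.0047 with the replicate block, -0.029 on log2(FPKM + 1) with or without the filter and -0.039 on log2(FPKM + 0.1). *Hoxb5* in 1.0 mM gels gave -0.016 with limma-voom. Without the FPKM filter, *Hoxb6* gave 0.031 in 1.0 mM gels and 0.030 between gels at 96 h, and the *Hoxb7* interaction 0.12. With a prior count of 0.5, an alternative chosen after seeing the data, the ratios of *Hoxb8* to *Hoxb7* and of *Hoxb7* to *Hoxa7* gave 0.27 and -0.29. Leaving out a library moved *Hoxb1* in 1.5 mM gels from -0.21 to 0.14 and *Hoxb5* and *Hoxb6* in 1.0 mM gels from -0.34 to 0.61 and -0.37 to 0.37. Between gels the ranges were -0.47 to 0.071 for *Hoxb4* at 72 h, -0.23 to 0.094 for *Hoxb5* and -0.21 to 0.10 for *Hoxb6* at 96 h, and -0.018 to 0.097 for *Hoxb2* over both times. Interactions ranged from -0.061 to 0.12 (*Hoxb3*), -0.19 to 0.36 (*Hoxb4*), -3.19 to 0.23 (*Hoxb7*) and -0.26 to 0.97 (*Hoxb8*), and the ratios of *Hoxb6* to *Hoxb5* and *Hoxb7* to *Hoxa7* from -0.045 to 0.24 and -0.17 to 0.31. The cause of these shifts was not tested.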
